A study of Mus musculus with 3 samples.

Results

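The forkhead genes encode transcription factors that share a winged-helix DNA-binding domain, and 34 of them, named by the pattern Fox, a letter and a number in the array annotation, were examined among the 18193 genes with a probe set of their own. The rule leaves out Foxa2, Foxd3 and Foxh1, and 7 further genes of the 44 in the mouse gene table are not analysed here. The 34 genes are covered by 77 probe sets, each a group of short probes that the annotation assigns to 1 gene. A further 2 probe sets that name a forkhead gene together with other genes were not used. The RNA came from mouse embryonic stem (ES) cells in which Pou5f1, which encodes the pluripotency factor Oct3/4, can be deleted (conditional KO), sampled at day 0, day 1 and day 2, each on 1 Affymetrix array. All groups carry the conditional alleles, day 0 included. How the deletion was induced, the promoter of any recombinase, and whether the line is 1 clone are not given in the sources used here, and no undeleted culture was followed over the same days. Time in culture and loss of Oct3/4 therefore cannot be told apart. With a single array a day there is no replicate error, no test and no p-value, and every statement describes these 3 arrays.

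Forkhead factors bind related DNA sites but differ in their partners, their regulation and the tissues that use them. The FoxO factors are switched off by insulin and AKT signalling, which moves them out of the nucleus, FoxM1 drives genes of mitosis, and FoxK factors recruit the SIN3 corepressor. FoxP factors are mainly repressors, and an alternatively spliced form of FOXP1 made in human and mouse ES cells is known to favour pluripotency genes. Many of the other members, such as those of the A, B, C, D, F and L groups, are used in particular embryonic tissues and are mostly silent in undifferentiated ES cells.

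The scale was alike over the arrays, with a median signal between 83.5 and 92.5. The knocked-out gene followed its labels: the Pou5f1 signal was 2400, then 40.8 and 15.5 in the order of the days. Of 7 ES cell markers, 7 were at least 2-fold lower at day 2 than at day 0, and of 8 measured trophectoderm markers, 7 were at least 2-fold higher. Of 9 fibroblast (feeder cell) markers, 6 averaged below the added constant, among them Col1a1, Col3a1 and Dcn. The other 3, Col1a2, Thy1 and Pdgfrb, were measured, and 1 of these 3 was at least 2-fold lower at day 2 than at day 0. Differences are given as log2(signal + 55.9), where 55.9 is the 40th percentile of all signals, and this understates the change of dim genes. A gene was counted as measured when a probe set of it averaged at least 55.9 over the 3 arrays, and its brightest such probe set stands for it. Where a gene had several kept probe sets, their differences scattered with a pooled SD of 0.34 between day 2 and day 0, and of 0.30 between either neighbouring pair of days (5906 genes). That spread is between probe sets of the same gene, and it does not hold the variation between cultures. It can mix measurement error with differences between the transcripts that the probe sets read.

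By this rule 21 of the 34 forkhead genes were measured and 13 were not. At day 2 Foxp1 was the 1 measured forkhead gene at least 2-fold lower than at day 0, against 5.65% of all 12717 measured genes, and 0 of 21 were at least 2-fold higher, against 5.25%. At day 1 Foxp1 and Foxn4 were at least 2-fold lower than at day 0 (2 of 21, against 2.59% of all genes) and 0 were at least 2-fold higher (against 2.40%). Foxn4 was measured through its day 0 array alone, so it could be counted in the lower direction only. For day 2 against day 1, 0 forkhead genes passed 2-fold upward, against 2.09% of all genes, and 0 downward, against 2.65%. Counts of 0 to 2 are near what these background shares give for a list of this size. Median differences were near 0 as well. The family's median was 0.03 for day 2 against day 0, where that of all genes was 0.05, and 14 of the 21 members lay within 0.5 of 0 (66.7%, against 67.9% of all genes). When all 34 genes were taken, each by its brightest probe set and without the filter, 0 passed 2-fold upward (4.05% of 18193 genes did) and 1, Foxp1, downward (4.30% did). By their brightest probe sets and with the constant added, then, the other 33 members stayed within 2-fold at day 2. For the 13 unmeasured members this outcome was fixed in advance. Signals below the constant cannot differ by 2-fold once it is added to them.

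**Figure D1:**
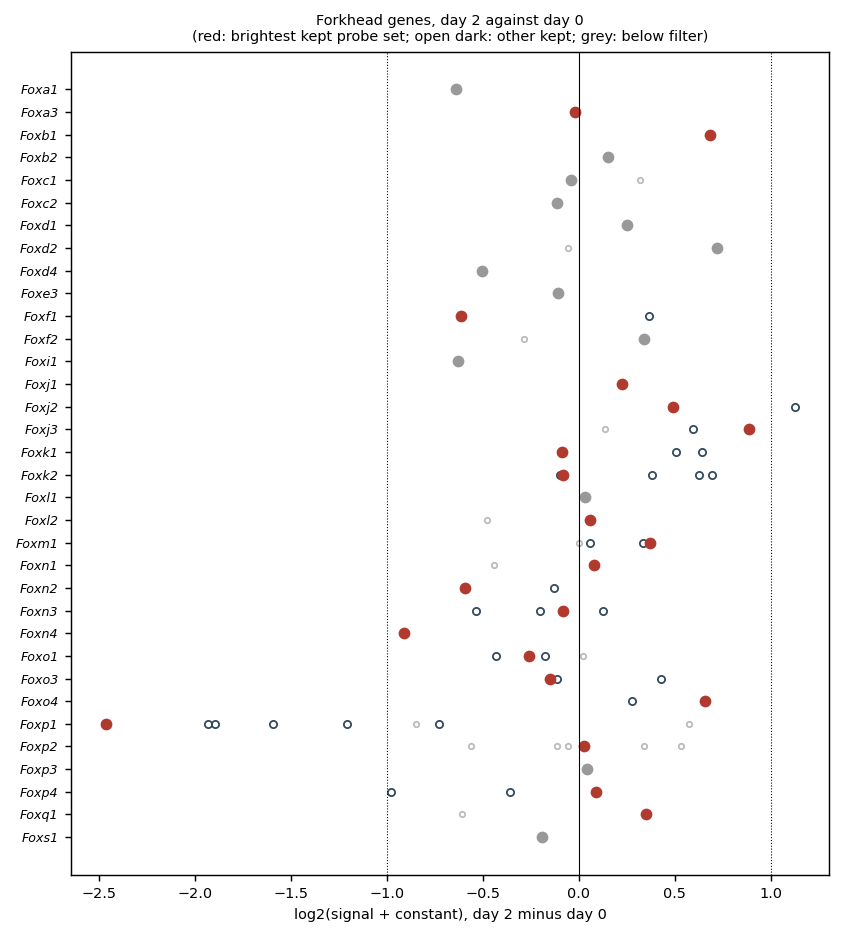
Difference of log2(signal + constant), day 2 minus day 0, on the horizontal axis for the 34 forkhead genes, 1 row per gene. Red points are the brightest kept probe set, open dark circles other kept probe sets, grey symbols probe sets below the filter, and dotted lines mark 2-fold. The 6 kept probe sets of Foxp1 lie between −2.46 and −0.73, and the brightest probe sets of the other measured members lie between −0.91 and 0.89.

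Foxp1, a repressor of the FoxP group, was lower at both later days. Its brightest probe set, 1435222_at, had a day 0 signal of 483, a day 1 signal of 122 and a day 2 signal of 41.8. The difference was −2.46 at day 2 (5.52-fold lower than day 0) and −1.60 at day 1 (3.04-fold lower). Of the 12717 measured genes, 89 had a lower value than Foxp1 at day 2 and 103 at day 1, both set against day 0. So the gene sits far down the list of the whole array at both days, and its day 2 signal is below the constant, where the size of the difference is compressed.

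The other Foxp1 probe sets show how far this holds for the gene as a whole. Probe set 1421140_a_at had signals of 433, 98.9 and 72.0 in the order of the days, and 1455242_at had 411, 72.5 and 69.8. Probe set 1421142_s_at had 201, 47.6 and 55.1, and 1421141_a_at had 175, 40.7 and 20.7. In each of these 4 the day 0 array was the high one and most of the drop had taken place by day 1. Probe set 1435221_at was the shallowest, with 167, 135 and 79.0 and a difference of −0.73 at day 2, although the annotation gives it the same source sequence as 1435222_at and 1455242_at. In all, 6 of 6 kept probe sets were below 0 for day 2 against day 0, and 5 of them were at least 2-fold lower (against 5.09% of all 22986 kept probe sets that name a gene). At day 1, likewise, 5 of 6 were at least 2-fold lower than at day 0 (against 2.35%). The mean over the 6 was −1.64 at day 2 (SD 0.61 over probe sets) and −1.32 at day 1 (SD 0.58), smaller than the brightest probe set gives, and the 6 come from 2 source sequences, so they are not independent measurements. From day 1 to day 2 the mean difference was −0.32, about the size of the spread between probe sets. The filter bears on these counts: 1421142_s_at and 1421141_a_at passed it through their day 0 signal alone. The remaining 2 probe sets stayed at or below 50.1 on every array and did not pass it. Of these, 1438802_at gave −0.85 at day 2 and 1443258_at, highest on the day 2 array, gave 0.57. Whether any of them reads the ES cell splice form was not tested.

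**Figure D2:**
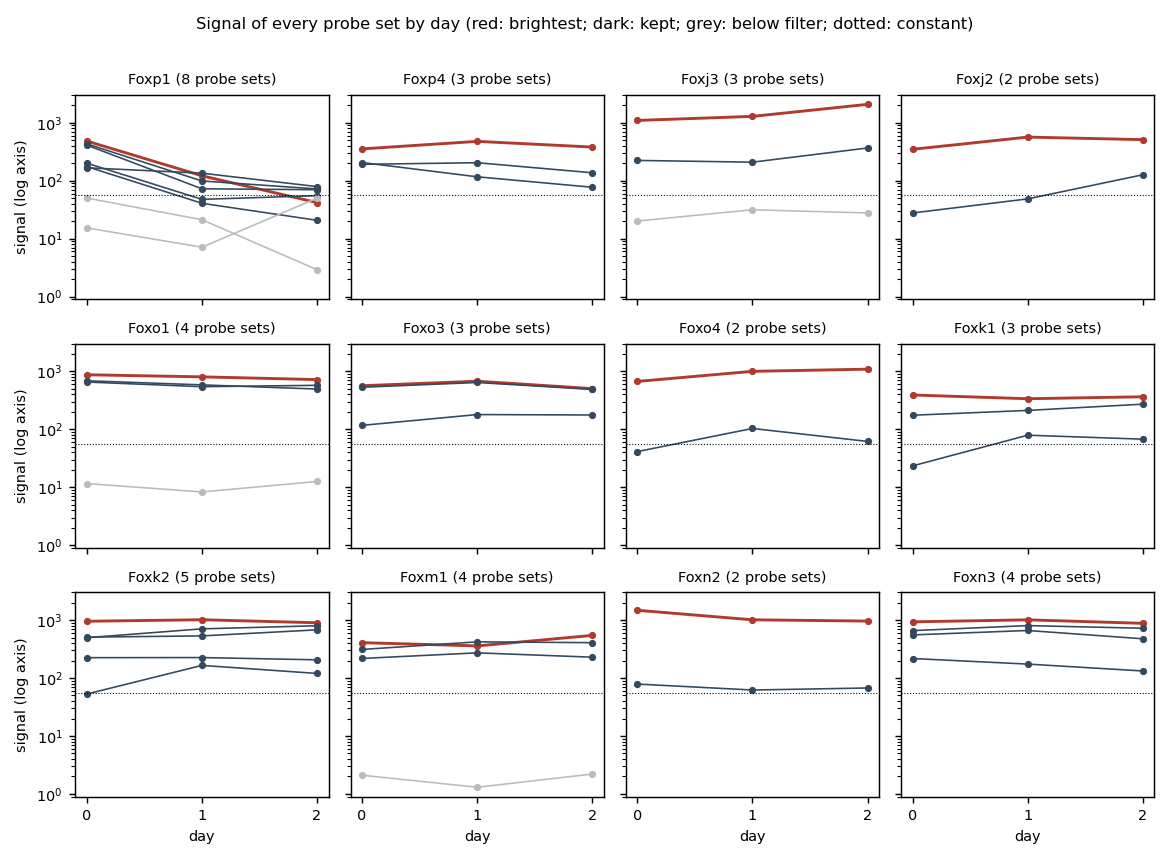
Deposited signal (log axis) of every probe set by day for the 12 forkhead genes of the P, J, O, K, M and N groups whose brightest probe set averaged at least 2 times the constant. Red marks the brightest probe set, dark lines other kept ones, grey lines those below the filter, and the dotted line the constant of 55.9. The kept Foxp1 lines lie between 167 and 483 at day 0 and between 20.7 and 79.0 at day 2, while the brightest lines of the other genes stay within 2-fold of day 0.

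On the same arrays ES cell markers were lower after day 0 and markers of trophectoderm were higher, while those of primitive endoderm were split. In the order of the days, the summed signal of the 7 ES cell markers was 104455, 63959 and 21826. That of the 9 trophectoderm markers was 7988, 12710 and 53841, with Elf5 below the constant. The 6 primitive endoderm markers summed to 597, 1178 and 1304, with 2 of 5 measured ones at least 2-fold higher at day 2 and Sox7 below the constant. Gata6 was among the higher ones (1.46), while Gata4 (−0.43) and Sox17 (−0.27) were below day 0. Of 3 measured mesoderm markers and 2 measured neuroectoderm markers, 0 passed 2-fold in either direction at day 2. The 9 fibroblast markers summed to 754, 667 and 564. Their part in the Foxp1 result was not tested, and in a mixed culture fewer cells that express a gene and less RNA per cell cannot be told apart.

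The Foxp1 locus has 3 annotated start sites in the RefSeq promoter table (250 bases before to 50 after each start), and their windows are shown because Foxp1 carries the largest difference of the family and because they differ in base composition. The capitals mark CG dinucleotides. They number 13, 5 and 44 in windows 1, 2 and 3, where the median of all 32851 windows in the table is 7. The window of Foxj3, the member whose brightest probe set was furthest above day 0 at day 2, is set beside them and holds 42. Each sequence reads 5′ to 3′ on the gene's own strand.
Foxp1 window 1, GRCm38.p6 chr6:99520944-99521243, minus strand: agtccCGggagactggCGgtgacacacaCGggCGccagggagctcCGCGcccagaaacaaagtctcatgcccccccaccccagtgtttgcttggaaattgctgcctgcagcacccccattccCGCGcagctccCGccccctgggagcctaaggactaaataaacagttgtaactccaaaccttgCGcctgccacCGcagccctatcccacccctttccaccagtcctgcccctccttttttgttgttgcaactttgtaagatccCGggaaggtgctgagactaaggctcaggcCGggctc
Foxp1 window 2, GRCm38.p6 chr6:99266466-99266765, minus strand: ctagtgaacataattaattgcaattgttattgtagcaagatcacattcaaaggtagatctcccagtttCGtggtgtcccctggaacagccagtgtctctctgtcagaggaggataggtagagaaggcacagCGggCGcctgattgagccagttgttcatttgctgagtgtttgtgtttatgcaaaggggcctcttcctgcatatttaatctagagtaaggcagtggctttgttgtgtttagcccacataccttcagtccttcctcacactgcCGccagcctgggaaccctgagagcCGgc
Foxp1 window 3, GRCm38.p6 chr6:99028249-99028548, minus strand: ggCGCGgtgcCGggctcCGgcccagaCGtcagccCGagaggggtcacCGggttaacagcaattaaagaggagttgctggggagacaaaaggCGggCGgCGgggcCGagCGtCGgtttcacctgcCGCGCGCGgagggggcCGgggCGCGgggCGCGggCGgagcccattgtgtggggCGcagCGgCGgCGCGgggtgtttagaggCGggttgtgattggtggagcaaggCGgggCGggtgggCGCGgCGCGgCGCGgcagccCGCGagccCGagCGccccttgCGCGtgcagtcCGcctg
Foxj3 window 1, GRCm38.p6 chr4:119539411-119539710, plus strand: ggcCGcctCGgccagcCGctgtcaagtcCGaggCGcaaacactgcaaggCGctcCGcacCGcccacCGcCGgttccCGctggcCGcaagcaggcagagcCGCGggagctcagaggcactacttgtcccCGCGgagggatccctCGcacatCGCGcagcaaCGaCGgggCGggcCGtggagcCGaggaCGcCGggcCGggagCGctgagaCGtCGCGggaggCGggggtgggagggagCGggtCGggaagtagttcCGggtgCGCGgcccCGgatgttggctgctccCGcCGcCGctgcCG

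The letters ATGCAAAT, the octamer that POU factors such as Oct3/4 bind, were searched on both strands of these windows, as were the letters of a forkhead and a Sox site, none of which contains another. They were found in 0 of the 25 windows listed for 22 of the forkhead genes, where 1.74% of all windows hold them. GTAAACA, a core forkhead site, was in 1 of the 25, that of Foxa1, against 3.65% of all windows. CATTGT, the core that Sox factors bind, was in 2 of the 25, window 3 of Foxp1 and the window of Foxd4, against 12.6% of all windows. A match describes letters in 300 bases and shows no binding. The windows of the 12 measured members in the table held a median of 29 CG dinucleotides, those of the 10 members below the filter a median of 12, and the windows of all genes a median of 7.

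The other FoxP members were split between probe sets or close to background. Foxp4, a relative of Foxp1 that also acts as a repressor, had signals of 354, 478 and 381 by its brightest probe set, a difference of 0.09 at day 2. Its other kept probe sets gave −0.98 (signals 206, 117 and 77.0) and −0.36 (192, 204 and 137), so the mean over all 3 was −0.42 and the direction depends on the probe set. Foxp2, known for its role in speech and motor circuits, was close to background, with 58.4, 66.7 and 60.8 on the 1 of its 6 probe sets that passed the filter. Foxp3, the factor of regulatory T cells, stayed between 37.6 and 52.1, below the constant on all 3 arrays.

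Among the FoxO genes, the effectors of insulin and PI3K signalling, the differences were small and pointed different ways. Foxo1, reported as a support of pluripotency in human ES cells, had signals of 877, 806 and 723 by its brightest probe set. All 3 of its kept probe sets were below 0 for day 2 against day 0, with a mean of −0.29 (SD 0.13), which is less than the pooled spread of 0.34. The 3 share 1 source sequence, so they are not independent measurements. Foxo3 had 567, 678 and 505, a difference of −0.15 at day 2 and 0.24 at day 1, highest at day 1 on 3 of 3 kept probe sets. Its dimmest kept probe set, with 117, 180 and 177, gave 0.43 at day 2 and the mean over the 3 was 0.06, so the day 2 direction depends on the probe set. Foxo4 had 673, 1004 and 1095, or 0.66 at day 2 and 0.54 at day 1, with its second kept probe set at 0.28 and 0.71. Foxo4 was thus the FoxO gene furthest above day 0 at both days, by an amount under 2-fold.

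Foxj3, which is known from mouse muscle and germ cells, was the forkhead gene furthest above day 0 at day 2 by its brightest probe set. Its brightest probe set had signals of 1098, 1289 and 2080, with a difference of 0.89 (1.85-fold), and 871 of 12717 genes were higher. A second kept probe set gave 0.60, with signals of 224, 209 and 367. On both probe sets the step came between day 1 and day 2, at 0.67 and 0.68. Foxj2, a broadly expressed relative, had 348, 566 and 511 and was above day 0 by 0.62 at day 1 and 0.49 at day 2. Its dimmer probe set gave 1.13 at day 2, from signals of 27.7, 48.5 and 127, and passed the filter through its day 2 signal alone. For Foxj2, then, the brighter probe set was highest at day 1 and the dimmer one at day 2. Foxj1, the master regulator of motile cilia, had 47.3, 88.3 and 64.6, near the constant throughout.

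The FoxK genes, which recruit SIN3 and are known to repress autophagy genes, stayed near their day 0 level by their brightest probe sets. Foxk1 had 392, 338 and 365 (−0.09 at day 2) and Foxk2 had 956, 1015 and 900 (−0.08). Their other probe sets lay mostly higher, the highest of them being a dim Foxk2 probe set with signals of 52.9, 165 and 120 (0.69 at day 2 and 1.02 at day 1). The dimmest kept Foxk1 probe set (23.4, 79.3 and 67.7, 0.64 at day 2) passed the filter through its later arrays alone, which favours an upward value. With the mean over kept probe sets the differences were 0.35 for Foxk1 (3 probe sets, SD 0.39) and 0.30 for Foxk2 (5 probe sets, SD 0.38). Neither direction is therefore settled by these data. Foxm1, the activator of mitotic genes, had 408, 359 and 545, a difference of 0.37 at day 2. All 3 of its kept probe sets were above 0 at day 2, between 0.06 and 0.37, with a mean of 0.26 (SD 0.17). That mean is less than the pooled spread of 0.34, and the 3 share 1 source sequence. At day 1 they differed in direction, from −0.16 to 0.38.

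Of the FoxN genes, Foxn2 was lower and Foxn3 level. Foxn2 had signals of 1479, 1012 and 962 on its bright probe set, −0.59 at day 2 and −0.52 at day 1, so that its difference had been reached by day 1. Its dim probe set gave −0.13. Foxn3, known as a checkpoint suppressor, had 934, 1011 and 880 (−0.08), and its 4 kept probe sets ranged from −0.54 to 0.13. Foxn4, a factor of retinal progenitors, was read by 1 dim probe set with signals of 139, 15.8 and 47.8 in the order of the days. This gave −1.44 at day 1 and −0.91 at day 2, with both later signals below the constant, and the day 1 value was −0.975 when the constant was doubled. Foxn1, the factor of thymic epithelium and hair, stayed between 53.4 and 81.6.

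**Figure D3:**
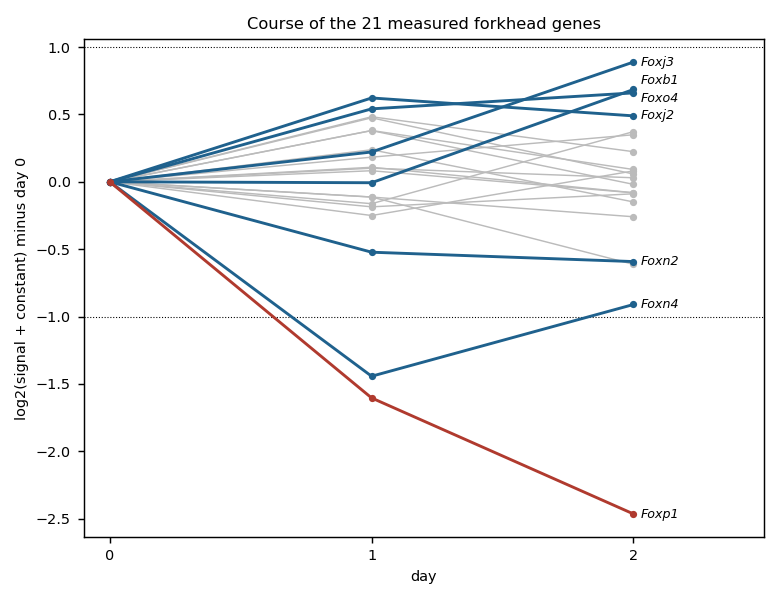
Difference of log2(signal + constant) from day 0 on the vertical axis against day, for the 21 measured forkhead genes by their brightest kept probe set. Foxp1 (red) goes to −1.60 and −2.46, 6 other genes are named in blue and the rest are grey, and dotted lines mark 2-fold. At day 2 the other lines lie between −0.61 and 0.89, except Foxn4 at −0.91.

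The remaining measured members are regulators of particular embryonic tissues, and most of them were close to background. Foxb1, a gene of the neural tube and diencephalon, had 48.1, 47.6 and 111 (0.68 at day 2). It was measured through its day 2 array alone, so its day 2 difference could only be upward. Foxf1, a factor of lateral mesoderm, had 157, 141 and 83.1 on one probe set (−0.61) and 67.5, 60.8 and 103 on the other (0.37), so its direction is unresolved. Foxl2, the ovarian factor, had 198, 296 and 208 and was highest at day 1, by 0.47. Foxq1, known from mouse hair and from epithelia, had 79.6, 97.9 and 117 (0.35), and Foxa3, a liver regulator, had 67.6, 105 and 66.0 (−0.02). With the constant added, none of these genes passed 2-fold on a kept probe set in any pair of days.

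The 13 unmeasured genes were Foxa1, Foxb2, Foxc1, Foxc2, Foxd1, Foxd2, Foxd4, Foxe3, Foxf2, Foxi1, Foxl1, Foxp3 and Foxs1. Their 16 probe sets gave signals between 0.8 and 55.6, below the constant on all 3 arrays in each case. They include regulators of vessels and mesoderm (Foxc1, Foxc2), kidney stroma (Foxd1), lens (Foxe3) and gut mesenchyme (Foxl1). No transcript of these was detectable above the constant by these probe sets at any of the days. Just below the filter lay Foxp3 (mean signal 46.2) and Foxd2 (33.4), and just above it Foxp2 (62.0) and Foxj1 (66.7). Several of the dim genes are neighbours in the genome. Foxq1, Foxf2 and Foxc1 follow each other on chromosome 13 with 0 protein-coding genes between them, as do Foxd2 and Foxe3 on chromosome 4. On chromosome 8, Foxc2 and Foxl1 are adjacent and 1 gene separates Foxf1 from Foxc2. Of these 8 clustered genes, Foxq1 and Foxf1 were measured, whereas Foxp1, Foxj3 and the FoxO genes have no forkhead neighbour among the members.

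Genes known to work with these factors, or to be their targets, were then described from 9 lists. Over all lists together 157 different genes were measured, of which 11 were above 2-fold and 20 below it for day 2 against day 0, with a median of −0.07. As the background of all genes is 5.25% and 5.65%, these counts are read beside the named genes and not as a result of their own. In the list upstream of FoxO, 2 of 30 measured genes passed 2-fold upward and 3 downward, with a median of −0.04. Akt1, the kinase that keeps FoxO factors in the cytoplasm, had signals of 969, 1478 and 2578 (1.36 at day 2), although its 3 kept probe sets ranged from 0.47 to 1.53. Setd7, a methyltransferase that acts on FoxO3, had 395, 552 and 1038 (1.28), with its other probe set at 0.22. Sirt1, a deacetylase of FoxO factors, had 2874, 1114 and 893 (−1.63), the acetyltransferase gene Kat2b 2650, 1342 and 869 (−1.55, with its 3 kept probe sets from −1.56 to −0.39), and Sgk1, another kinase of FoxO factors, 9603, 8020 and 3633 (−1.39). The steps differed in time, with Sirt1 mostly lower by day 1 and Sgk1 mostly after it.

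FoxO target genes were spread to both sides of 0, with 4 of 32 measured genes at least 2-fold higher, 6 at least 2-fold lower and a median of −0.0035. Klf6 (785, 1439 and 3465, a difference of 2.07, with its 5 kept probe sets from 0.32 to 2.29), the autophagy gene Gabarapl1 (533, 1323 and 1958, 1.77), the cell cycle inhibitor gene Cdkn1a (1.24) and Cited2 (1.05, and 0.83 on its other probe set) were the higher ones. Klf2, also a factor of the naive pluripotent state (5034, 2232 and 541, −3.09), Trim63 (692, 364 and 129, −2.02), Txnip (−1.35), Gadd45a (−1.28), Pdk4 (−1.27) and the apoptosis gene Bcl2l11 (−1.05, with its 5 kept probe sets from −1.15 to −0.79) were the lower ones. These targets are also controlled by other factors, and no common direction was seen. For FoxM1, 0 of 25 measured targets passed 2-fold in either direction, with a median of −0.10. They ran from Bub1 (4572, 3838 and 2771, −0.71) to Mki67 (3290, 4242 and 5010, 0.60), next to the Foxm1 difference of 0.37. Among 11 FoxM1 partners 1 passed 2-fold, Mybl2 (8633, 5282 and 3551, −1.27), and the median was −0.22.

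The lists for the repressive forkhead factors held wide differences in single genes, as did other lists. Of 17 measured FoxK partners, 1 was at least 2-fold higher and 1 lower, near the shares of all genes (5.25% and 5.65%). The lower one, Sap30, a subunit of the SIN3 complex, had 5501, 1781 and 908 (−2.53). The higher one, Sin3b, a scaffold of the same complex, had 4175, 5261 and 8802 (1.07, with its 5 kept probe sets from 0.33 to 1.07). The median was −0.19. The FoxP list holds corepressors and also the splicing regulators of the Mbnl group. Among its 14 measured genes, 2 were at least 2-fold higher, both of them Mbnl genes, and 1 lower, with a median of 0.05. The corepressor gene Ctbp2 had 10659, 4829 and 2206 (−2.24, and −2.01 on its other kept probe set), whereas Ctbp1 was at 0.65. Muscleblind proteins are splicing regulators known to oppose the ES cell form of Foxp1, and Mbnl2 and Mbnl3 were higher at different times. Mbnl2 had 1451, 3765 and 4626 (1.64 at day 2, where its 5 kept probe sets ranged from 0.32 to 1.72, and 1.34 already at day 1), and Mbnl3 had 259, 314 and 2710 (3.14 at day 2 and 0.23 at day 1). Mbnl1 was at 0.08 at day 2. Foxp1 was at −1.60 at day 1 and −2.46 at day 2, and a link between the Mbnl genes and Foxp1 was not tested.

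The programmes of the tissue-specific members were mostly dim. Of 26 motile cilium genes and Rfx factors with a probe set, 16 were measured, 0 were at least 2-fold higher at day 2 and 3 were lower. The 3 were Rfx2 (524, 291 and 79.4, −2.10, with its other probe set at −0.60), Ccdc40 (−1.19) and Tekt1 (130, 56.4 and 26.6, −1.17). Tekt1 averaged above the constant through its day 0 signal, so it could be counted in the lower direction only. Of 17 FoxA target genes with a probe set 8 were measured, with Apoe (7644, 2570 and 947, −2.94) lower and Gata6 (131, 457 and 458, 1.46) higher. Of 20 vascular and lateral mesoderm genes 12 were measured, 1 was at least 2-fold higher (Hand1, 494, 1722 and 1262, 1.26) and 4 were lower, with a median of −0.54. The 4 were Bmp4 (−3.25), Notch4 (−2.52, with its other probe set at −0.18), Pecam1 (−2.17) and Meox1 (130, 31.9 and 12.0, −1.45). Meox1 was measured through its day 0 array alone, so it could be counted in the lower direction only. Foxc1, Foxc2 and Foxf2, whose names this last programme carries, were themselves below the constant, while Foxf1 (157, 141 and 83.1) was measured.

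**Figure D4:**
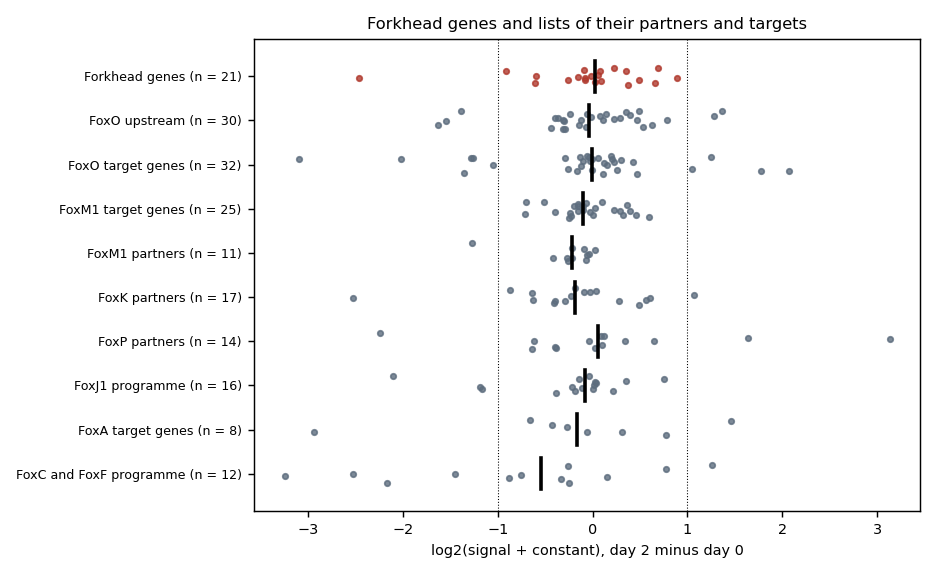
Difference of log2(signal + constant), day 2 minus day 0, on the horizontal axis for the 21 measured forkhead genes (red) and for the measured genes of 9 lists of partners and targets (grey), with 1 point per gene and a black bar at each median. Dotted lines mark 2-fold. The medians lie between −0.54 (FoxC and FoxF programme) and 0.05 (FoxP partners), and the forkhead genes, at 0.03, have Foxp1 as their lone point beyond 2-fold.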

How the data were processed

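Total RNA was labelled with biotin and hybridised to 3 Affymetrix arrays, per the labels' protocols. The values deposited by the authors are linear signal intensities, 1 per probe set, made with MAS5 per the submitters' processing notes, with no version stated. The day 2 array also lists 64 control probe sets, which were left out, and 45037 probe sets remained. Arrays were brought to an equal trimmed mean (2% off each end), a change too small to see. The constant of 55.9, the filter (26925 probe sets kept) and the choice of probe set are given with the results. Names come from the platform annotation, and 34 of 34 members matched a RefSeq gene table (GRCm38.p6) by identifier; promoter sequences are from RefSeq. Every forkhead gene is named, with the genes of each list that differ most at day 2. The members, lists and alternatives were chosen with earlier results of these data known. Calculations used Python 3.11.15, NumPy 2.4.6 and pandas 2.3.3, and the steps were tested on simulated data. Precision is limited by the number of arrays. Alternatives changed the constant, filter, scaling and probe set choice.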

Additional observations from a re-analysis of the deposited data

How the results depend on the processing

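No paired analysis was possible because each day has 1 array. Under 9 alternatives, the number of forkhead genes at least 2-fold lower at day 2 than at day 0 was 2 with the constant halved, Foxn4 (−1.14) joining Foxp1. At day 1 it was 1 with the constant doubled and 1 under a filter at the 60th percentile, and between day 2 and day 1 it was 1 with the constant halved (Foxp1, −1.10). All other counts and the family medians moved by less than 1.5 times or than the probe spread. For Foxp1 the day 2 difference ranged from −2.87 with the constant halved to −1.64 as the mean over its probe sets, and for day 1 from −1.77 to −1.32. Single genes gave 180 values for day 2 against day 0, of which 7 moved by more than the probe spread. The mean over probe sets turned the sign of Foxk1 (0.35), Foxk2 (0.30), Foxo3 (0.06) and Foxp4 (−0.42). Other alternatives also turned the sign of values near 0, among them Foxl2, Foxp2 and the family median (−0.08 under the filter at the 60th percentile). The median of the vascular and lateral mesoderm list was −1.53, and that of the FoxA targets −0.74, under the stricter filter, which tests fewer genes. Equal medians of ribosomal protein genes moved the median of all genes to −0.05. Signals below the constant have no order.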
